A study of Bos taurus with 22 samples.

Results

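Calprotectin is the complex of S100A8 and S100A9, small calcium-binding proteins that fill the cytosol of neutrophils and are released when these cells are activated. S100A12 is their close relative. The 3 are also called calgranulins, act as alarm signals on Toll-like and other receptors of innate immune cells, and are also made by monocytes and by stressed keratinocytes. FCGR3A is CD16, a receptor for the constant part of immunoglobulin G on natural killer cells and some monocytes and macrophages. ITGB2 is CD18, the beta chain shared by the leukocyte integrins, with which white blood cells hold on to vessel walls. Adipose tissue holds few neutrophils at rest, and its blood vessels carry them.

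The 5 genes were measured in subcutaneous fat of 11 Holstein heifers 30 days before and 14 days after their first calving, on 22 Affymetrix bovine arrays (11 prepartum, 11 postpartum). The fat came from a dorsal site, the periischeum region. The cows, aged 24 to 28 months, came from 1 farm, ate ad libitum and had no dietary treatment. The groups thus differ by stage, and by the prepartum and postpartum diets that go with it. The members were all probe sets whose single annotated symbol is S100A8, S100A9, S100A12, FCGR3A or ITGB2. These were 6 of 24016 bovine probe sets, and 5 of 9155 genes with a single symbol. S100A9 had 2 probe sets, called here (a) (Bt.16201.1.S1_at) and (b) (Bt.16201.2.A1_at). In the RefSeq gene table of assembly ARS-UCD2.0, S100A8, S100A12 and S100A9 follow each other, in this order, with no other protein-coding gene between them.

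The genes were chosen from the data. They were neutrophil markers bright enough to be tested, and their median change had moved in opposite directions in 2 sets of cows. The sets follow from a code at the end of the array titles whose meaning is not stated: array set 1 holds 5 cows (331, 338, 341, 347 and 360) and array set 2 holds 6 cows (330, 346, 382, 384, 386 and 387), each with both of its arrays. For the members, the change within each set and the difference between sets are therefore given as descriptions with no p-value. The limma test across all probe sets is given for the change over 11 cows. Levels are log2(signal + 7.78), changes are postpartum minus prepartum on that scale, and levels of different probe sets cannot be compared. All 6 probe sets had mean levels above the filter of 5.05. The dimmest was FCGR3A (mean 5.88), and of the neutrophil markers listed TREM1 lay just outside (mean 4.92).

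The arrays were those of fat. FABP4, the adipocyte fatty acid binding protein, lay between 12.61 and 13.49, and ADIPOQ, which encodes adiponectin, between 9.54 and 11.62. Some arrays stood apart. The summed signal of 13 skeletal muscle markers reached 85360 in the postpartum array of cow 384 and 53004 in the prepartum array labelled cow 387, against medians of 1729 to 2136 in the groups of array set 2. The same postpartum array of cow 384 had the lowest summed signal of 15 adipocyte markers (17092). The arrays labelled cow 387 differed more than those of other cows: after subtraction of group means their correlation was -0.09 (0.18 to 0.43 for the other 10 cows). In the arrays labelled 387 BOLA, a histocompatibility gene, measured 3.56 before and 12.38 after calving. BOLA levels of the other cows were not set beside these. Whether both come from 1 animal was not tested. Means without cow 387 were, in array set 2, 1.23 for S100A8, 1.13 and 1.34 for S100A9 (a) and (b), 2.11 for S100A12, 0.45 for FCGR3A and 1.04 for ITGB2. In bulk tissue, fewer cells of a type and less RNA per cell cannot be told apart.

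S100A8, the smaller calprotectin subunit, was lower after calving in all 5 cows of array set 1 and higher in 5 of 6 cows of array set 2. In array set 1 its prepartum levels were 9.36 (cow 331), 8.34 (338), 10.17 (341), 8.86 (347) and 7.19 (360), and its postpartum levels were 8.65, 6.74, 9.17, 7.87 and 6.20 in the same order. Each cow kept about its place in the order, so that cow 341 was highest and cow 360 lowest at both times. In array set 2 the prepartum levels ran from 7.11 (cow 384) through a median of 7.48 to 9.68 (cow 382), and the postpartum levels from 5.97 (cow 384) through a median of 9.47 to 11.48 (cow 382). Before calving the sets overlapped widely, and after it 3 arrays of array set 2 (cows 330, 346 and 382, at 10.17, 10.84 and 11.48) stood above every postpartum array of array set 1. The signal of cow 346 went from 194.7 to 1824 and that of cow 382 from 809.8 to 2848. The mean change was -1.06 in array set 1 (SD 0.33, n = 5) and 1.27 in array set 2 (SD 1.54, n = 6), where cow 384 ran against the others (-1.15). Over 11 cows the mean was 0.21 (SE 0.41, 95% interval -0.68 to 1.10; limma adjusted p = 0.822; higher in 5 of 11 cows).

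**Figure D1:**
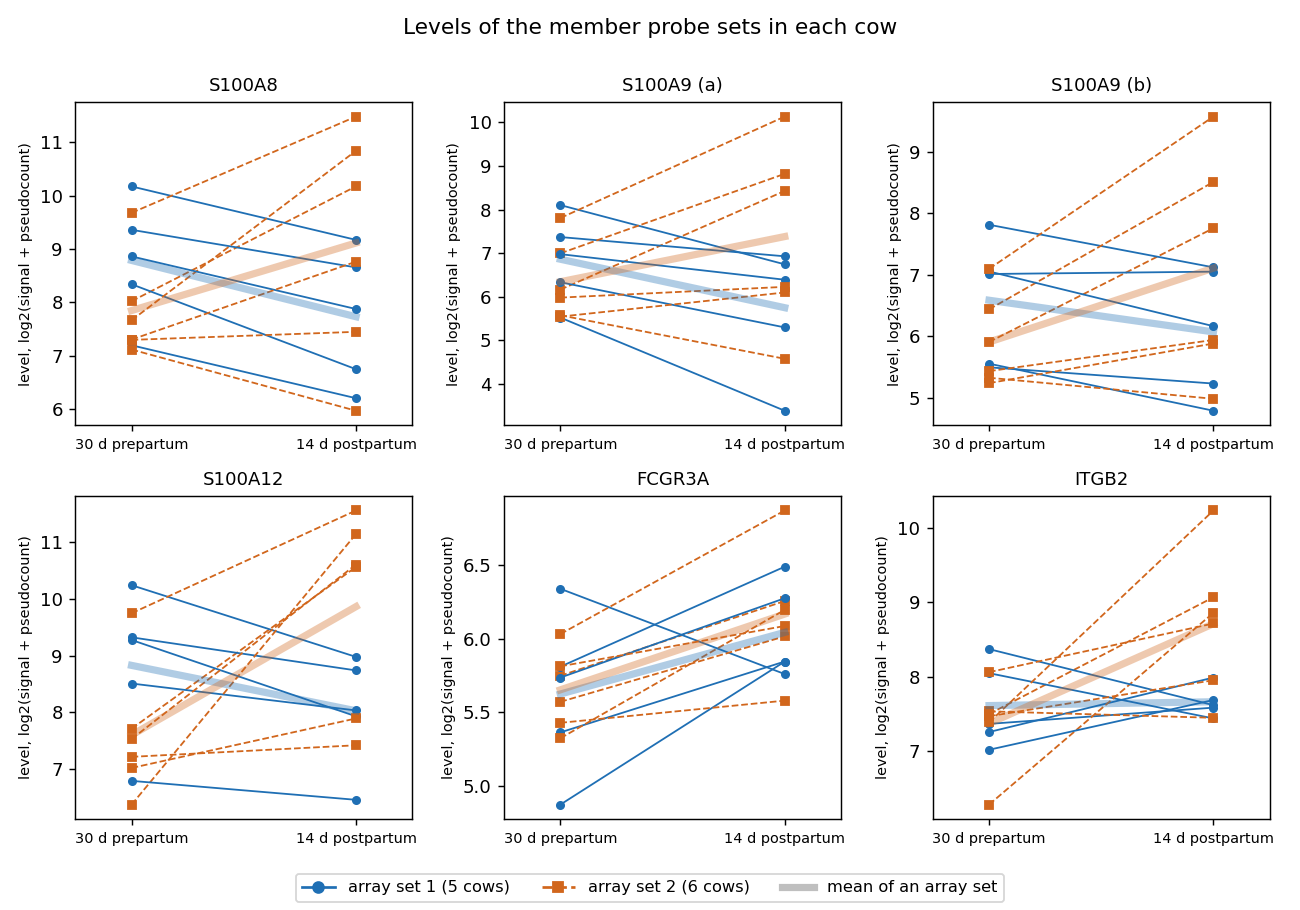
Level of each member probe set, log2(signal + 7.78), in each of 11 cows before and after calving; thin lines join the 2 arrays of a cow, blue circles are array set 1 and orange squares array set 2, and broad lines join the means of a set. S100A8, S100A9 and S100A12 slope down in blue and mostly up in orange (S100A12 mean changes -0.80 and 2.27), whereas FCGR3A slopes up in 10 of 11 cows.

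S100A9, the other calprotectin subunit, followed S100A8. By probe set (a), its prepartum levels in array set 1 were 7.37, 6.33, 8.10, 6.98 and 5.52 (cows 331, 338, 341, 347 and 360), and its postpartum levels were 6.93, 5.30, 6.74, 6.39 and 3.39. In array set 2 it ran from 5.55 (median 6.07) to 7.80 before and from 4.58 (median 7.33) to 10.13 after calving, with cow 384 lowest and cow 382 highest after calving. The mean change by (a) was -1.11 in array set 1 (SD 0.68, n = 5), with all 5 cows lower, and 1.04 in array set 2 (SD 1.32, n = 6), with 5 of 6 cows higher. Probe set (b) gave a mean change nearer 0 in array set 1 (-0.52, SD 0.39, n = 5) and a like one in array set 2 (1.20, SD 1.10, n = 6). Both probe sets gave the same sign in 10 of 11 cows. They differed most in cow 360 (-2.14 by (a), -0.26 by (b)), where (a) had a signal of 2.69 after calving, and in cow 331 (b) was 0.04. Over 11 cows the mean change was 0.06 by (a) (SE 0.39, 95% interval -0.77 to 0.89; limma adjusted p = 0.953) and 0.42 by (b) (SE 0.31, 95% interval -0.24 to 1.08; limma adjusted p = 0.49).

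S100A12 had the widest gap between the sets. In array set 1 its prepartum levels were 9.32, 8.51, 10.24, 9.27 and 6.78 (cows 331, 338, 341, 347 and 360), and its postpartum levels 8.74, 8.03, 8.98, 7.93 and 6.45, lower in each cow. In array set 2 it ran from 6.36 (median 7.37) to 9.75 before and from 7.41 (median 10.59) to 11.57 after calving, higher in each cow. Cow 346 was lowest of all 22 arrays before calving and second highest after it, with signals of 74.5 and 2263. The mean change was -0.80 in array set 1 (SD 0.47, n = 5; from -1.35 to -0.34) and 2.27 in array set 2 (SD 1.66, n = 6; from 0.20 to 4.79), and the changes of the sets did not overlap. This gap of 3.07 ranked 1 among 14410 tested probe sets for array set 2 minus array set 1, and those of S100A8 (2.32), S100A9 (a) (2.15) and S100A9 (b) (1.72) ranked 3, 4 and 9. The 95th percentile of all probe sets was 0.41. The ranks restate what chose the genes. Over 11 cows S100A12 averaged 0.87 (SE 0.51, 95% interval -0.21 to 1.96; limma adjusted p = 0.362; higher in 6 of 11 cows). Without cow 346 this mean was 0.48, and without cows 330, 346 and 382 it was 0.02.

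FCGR3A was higher after calving in 10 of 11 cows, and to a like extent in both sets. Its prepartum levels in array set 1 were 6.34, 5.81, 5.36, 5.74 and 4.87 (cows 331, 338, 341, 347 and 360), and its postpartum levels 5.76, 6.49, 5.85, 6.28 and 5.84. Cow 331, highest before calving, was the 1 cow that was lower after it (change -0.58). In array set 2 it ran from 5.32 (median 5.66) to 6.03 before and from 5.58 (median 6.14) to 6.87 after calving. The mean change was 0.42 in array set 1 (SD 0.59, n = 5) and 0.52 in array set 2 (SD 0.29, n = 6), a gap of 0.10. Over 11 cows the mean change was 0.47, or 1.39-fold (SE 0.13, 95% interval 0.20 to 0.75), and it missed the threshold of 0.05 (limma adjusted p = 0.0582). It passed without cow 331 (change 0.58, adjusted p = 0.0106), without cow 384 (0.50, adjusted p = 0.0373), with array weights (0.48, adjusted p = 0.033) and with cow as a random effect (0.47, adjusted p = 0.0493). In the other 21 of 25 alternatives it did not pass, for example without cow 346 or 360 (adjusted p = 0.124 each) and without cows 330, 346 and 382 (adjusted p = 0.334).

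ITGB2 lay between these patterns. In array set 1 its prepartum levels were 8.05, 7.36, 7.25, 8.37 and 7.02 (cows 331, 338, 341, 347 and 360), and its postpartum levels 7.44, 7.58, 7.99, 7.62 and 7.68, so that cows 331 and 347 were lower and the other 3 higher after calving. In array set 2 it ran from 6.28 (median 7.48) to 8.06 before and from 7.45 (median 8.78) to 10.23 after calving. The highest level was that of the pair labelled 387 (7.38 before, 10.23 after), followed by cows 330 (9.06), 346 (8.86) and 382 (8.71). The mean change was 0.05 in array set 1 (SD 0.70, n = 5) and 1.34 in array set 2 (SD 1.19, n = 6). Over 11 cows it averaged 0.75, or 1.69-fold (SE 0.30, 95% interval 0.12 to 1.39; limma adjusted p = 0.173; higher in 8 of 11 cows).

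None of the 6 member probe sets passed limma's test over 11 cows, where 3.43% of 14410 probe sets did (494) and 1.44% were higher after calving. At an unadjusted p under 0.05, FCGR3A (p = 0.00238) and ITGB2 (p = 0.023) were among 19.8% of probe sets. A change above 0 in at least 10 of 11 cows, as FCGR3A had, was found in 4.11% of them. A change below 0 in 5 of 5 cows of array set 1, as S100A8, S100A9 (a) and S100A12 had, was found in 6.84%. A change above 0 in 6 of 6 cows of array set 2, as S100A12 and FCGR3A had, was found in 2.99%. Array set 2 lay wholly above array set 1, as for S100A12, in 0.125% (18), or 0.409% in either direction, and all cows were below 0 in array set 1 and above 0 in array set 2 in 0.0278% (4). In array set 1 alone limma called 0.479% (69), with 16.2% at an unadjusted p under 0.05, and in array set 2 alone 0% (0, with 1526 or 10.6% at an unadjusted p under 0.05). Limma's test of the difference between sets called 0%, or 0 of 14410 probe sets, with 516 (3.58%) at an unadjusted p under 0.05. Since earlier views of these changes chose the genes, nothing is read from the counts within and between sets.

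**Figure D2:**
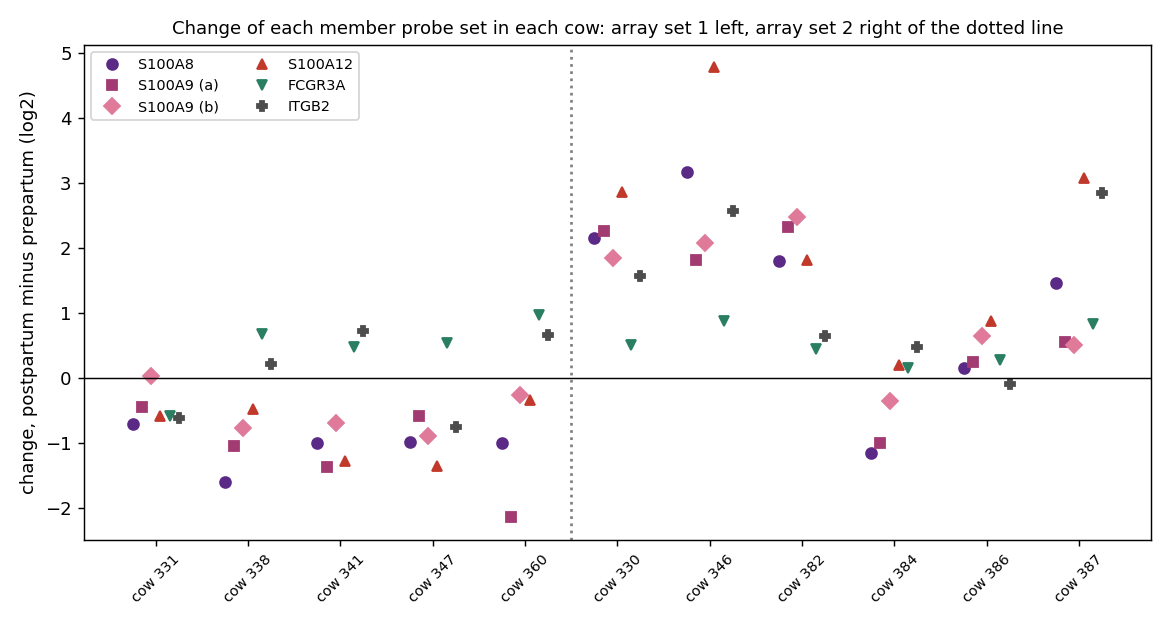
Change of each member probe set in each cow, postpartum minus prepartum on the log2 scale; the dotted line parts array set 1 (5 cows, left) from array set 2 (6 cows, right). All 4 calgranulin probe sets lie between 1.80 and 4.79 in cows 330, 346 and 382, and in cow 387 S100A12 and ITGB2 (3.09 and 2.85) stand apart from S100A9 (0.55 and 0.51).

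The cows of array set 2 were not alike. In cows 330, 346 and 382 all 4 calgranulin probe sets were higher after calving, by 1.80 to 4.79. In cow 386 the changes were 0.15 to 0.88. Cow 384 had 3 of 4 lower (from -1.15 to 0.20), and its postpartum array carried the highest muscle signal. In the pair 387 S100A12 changed by 3.09 and S100A8 by 1.46, but S100A9 by 0.55 (a) and 0.51 (b). Without cows 384 and 387 the mean change in array set 2 was 1.82 for S100A8, 1.66 for S100A9 (a) and 2.59 for S100A12.

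Transcripts of blood were high in the 3 postpartum arrays with the highest S100A8, but did not follow the calgranulins in every cow. For S100A12 the postpartum array labelled 387 (10.61) lay above that of cow 330 (10.57). HBB, which encodes beta globin of red cells, lay between 8.62 and 9.05 in the postpartum arrays of cows 330, 346 and 382 and between 5.07 and 7.92 in the other 19 arrays. PF4, a chemokine stored in platelets, lay between 9.37 and 10.48 in these 3 arrays and between 4.59 and 8.97 in the others. CXCR1, a receptor for neutrophil-attracting chemokines, lay between 7.40 and 8.12 against 4.29 to 6.84. The same 3 arrays were thus highest for a red cell, a platelet and a further neutrophil transcript. Of neutrophil markers below the filter, TREM1 measured 5.82, 5.72 and 6.19 in them and at most 5.46 in the others. MMP9 did not share this order: it measured 4.13, 3.22 and 4.61 in them and was highest (7.45) in the postpartum array labelled 387. In array set 1, where S100A8 was lower in each cow, CXCR1 was higher after calving in 4 of 5 cows and HBB in 2 of 5 (changes from -0.94 to 0.91). PF4 was lower there on average (mean change -0.57, from -1.36 to 0.10). So was MS4A1, a B cell transcript (mean change -0.29, from -0.84 to 0.37). In the pair labelled 387, where S100A12 changed by 3.09, HBB changed by -1.10, PF4 by -0.67 and CXCR1 by -0.24. The summed signal of the neutrophil markers outside the members (CXCR1, MMP9 and TREM1) ranged from 46.9 to 89.1 before and from 26.97 to 101.8 after calving in array set 1, and from 39.5 to 154.3 and from 34.5 to 352.4 in array set 2. The summed signal of 6 erythrocyte markers ranged from 86.4 to 209.7 before and from 53.3 to 593.5 after calving in array set 2, and from 85.7 to 293.6 and from 52.0 to 242.0 in array set 1. That of 2 platelet markers ranged from 68.0 to 495.1 and from 65.1 to 1434 in array set 2, and from 71.8 to 340.3 and from 19.99 to 165.6 in array set 1. HBB was the 1 kept gene of 6 erythrocyte markers on the array and PF4 the 1 of 2 platelet markers, and neither passed limma's test over 11 cows (adjusted p = 0.513 and 0.725) nor that between sets (adjusted p = 0.997 each). Globins HBA and HBM, the erythroid enzyme ALAS2 and the erythrocyte markers AHSP and SLC4A1 lay below the filter. ALAS2 measured 5.26, 5.23 and 5.51 after calving in cows 330, 346 and 382, and at most 4.35 in the other 19 arrays. SLC4A1 was highest after calving in cow 382 (3.88). The others were highest elsewhere: HBA in cow 338 before calving (5.43), and HBM (4.99, cow 341) and AHSP (4.91, cow 331) after it. Cows 330, 346 and 382 also had the 3 highest changes of S100A8. Without them the mean change in array set 2 was 0.15 for S100A8, -0.07 for S100A9 (a), 0.27 for S100A9 (b) and 1.39 for S100A12, against 0.42 for FCGR3A and 1.08 for ITGB2 (n = 3). The part of blood content in the changes was not tested.

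Macrophage transcripts differed among themselves in their order over the arrays. CD68, a lysosomal protein of macrophages, was highest in the postpartum array labelled cow 387 (11.07), which had an HBB level of 5.36, and in cow 330 it was 9.54. The second highest array was prepartum, cow 347 (9.70). In cows 346 and 382, with the highest S100A8, CD68 was 7.96 and 8.37, within the range of array set 1 after calving (7.49 to 8.06) or near it. LAPTM5, of the same marker list, was also highest in the array labelled 387 (10.43), but measured 9.69, 9.97 and 9.90 after calving in cows 330, 346 and 382, above every postpartum array of array set 1 (8.75 to 9.26). The summed signal of 12 macrophage and monocyte markers ranged from 3609 to 5513 before and from 4089 to 13333 after calving in array set 2, and from 2608 to 6420 and from 2590 to 5273 in array set 1. Of 11 kept markers none passed limma's test over 11 cows, and none that between sets. MMP9, a gelatinase of neutrophil granules and macrophages, lay below the filter but reached 7.45 in the array of cow 387. The part of macrophages in the changes of ITGB2 and S100A12 was not tested.

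Some epidermal transcripts were raised in some prepartum arrays. KRT5, a kept epidermal marker, changed little over 11 cows (-0.02, limma adjusted p = 0.959, higher in 5 and lower in 6). KRT10, a keratin of the upper epidermis, measured 9.34, 12.55, 9.35 and 11.48 before calving in cows 331, 341, 330 and 382, and at most 7.11 in the other 18 arrays. S100A8 lay between 8.02 and 10.17 in these 4 prepartum arrays and between 7.11 and 8.86 in the other 7, and S100A12 between 7.71 and 10.24 against 6.36 to 9.27. S100A7, a family member of the epidermis, reached 11.59 before and at most 4.79 after calving. The summed signal of 8 epidermal markers ranged from 242.4 to 11159 before and from 269.8 to 360.2 after calving in array set 1, and from 271.0 to 4594 and from 256.4 to 325.5 in array set 2. KRT10 alone gave 641 of a sum of 974 before calving in cow 331, and 643 of 1003 in cow 330. Without cows 331, 341, 330 and 382 the mean change in array set 1 was -1.19 for S100A8, -1.25 for S100A9 (a) and -0.72 for S100A12 (n = 3). In array set 2 it was 0.91, 0.41 and 2.24 (n = 4). The part of epidermis in the changes was not tested.

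**Figure D3:**
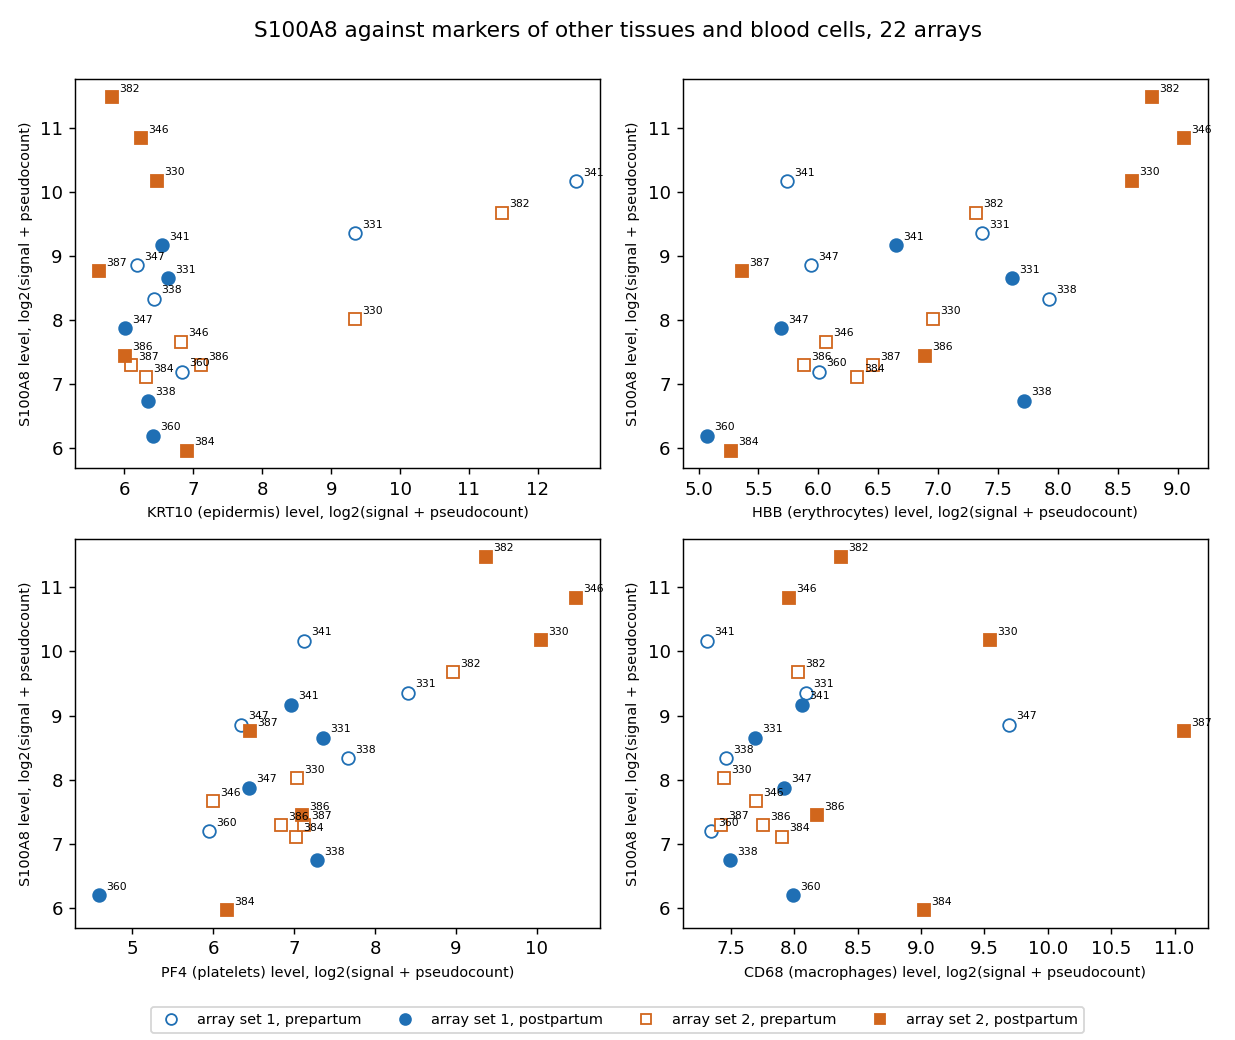
S100A8 level against the level of KRT10 (epidermis), HBB (red cells), PF4 (platelets) and CD68 (macrophages), each as log2(signal + 7.78), in 22 arrays labelled by cow; circles are array set 1, squares array set 2, open symbols prepartum and filled symbols postpartum. The postpartum arrays of cows 330, 346 and 382 lie at the upper right for HBB (8.62 to 9.05) and PF4 (9.37 to 10.48), and 4 prepartum arrays lie to the right for KRT10 (9.34 to 12.55).

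Other genes around neutrophils, Fc receptors and leukocyte adhesion were taken from 6 lists of 91 genes outside the members. Of these, 68 were on the array and 35 were kept. The lists are not specific to neutrophils and also hold genes of other cells, such as FCER1A. Over 11 cows 2 of the 35 kept genes rose and 1 fell past limma's threshold. Of all 14410 kept probe sets 3.43% passed it, and 1.44% were higher after calving. FCGRT, the neonatal Fc receptor that recycles immunoglobulin G, rose by 0.39 (SE 0.08, adjusted p = 0.0183, higher in 10 of 11 cows). ICAM3, a leukocyte adhesion molecule bound by integrins, rose by 0.64 (SE 0.13, adjusted p = 0.0193, higher in 10 of 11 cows). FCER1A, the binding chain of the immunoglobulin E receptor of mast cells and basophils, fell by 0.64 (SE 0.15, adjusted p = 0.0338, lower in 10 of 11 cows). KIT, a mast cell marker outside these lists, fell by 0.91 (limma adjusted p = 0.00555, lower in 11 of 11 cows). The median change of the 35 genes was 0.22, against 0.01 over all kept probe sets. Per set the median was -0.05 in array set 1 and 0.41 in array set 2, against 0.02 and -0.01 over all kept probe sets. The change was higher in array set 2 than in array set 1 for 26 of the 35 genes (74.3%), against 43.5% of all kept probe sets. None of the 35 passed limma's test of the difference between sets (adjusted p = 0.997 or more).

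Among genes of granule proteins, which neutrophils make mostly while maturing in the bone marrow, 15 of 16 on the array lay below the filter. Of all 9155 genes with a single symbol, 6984 were kept. The mean levels of the 15 granule genes were 3.36 to 4.77. They include lactoferrin LTF, elastase ELANE, myeloperoxidase MPO and the cathelicidins, antimicrobial peptides. Single arrays stood above these means. Before calving, in array set 1, CATHL1 measured 8.23 and CATHL4 5.73 in cow 331, and CATHL5 6.92 in cow 347. After calving, in array set 2, MMP9 measured 7.45 in the array labelled 387. CHI3L1 was kept and had mean changes of -0.46 in array set 1 (SD 0.84, n = 5) and 0.12 in array set 2 (SD 1.70, n = 6). Of 6 kept surface receptors none passed. PTAFR, the receptor for platelet-activating factor, had the widest gap (0.25 in array set 1, 1.12 in array set 2), and TLR4, a receptor for bacterial lipopolysaccharide on which calprotectin acts, ran the other way (0.40 and -0.12). CXCR1 changed by 0.25 (SD 0.62, n = 5) and 0.78 (SD 1.39, n = 6). Among 7 Fc receptors and their kinases, FCER1G, the signalling chain that FCGR3A needs, had mean changes of -0.05 and 0.60, and FCGR1A, the high-affinity receptor for immunoglobulin G, 0.40 and 0.65.

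The integrin partners of ITGB2 were ITGAL and ITGAD among kept genes. ITGAD, an alpha chain of macrophages and other leukocytes, had mean changes of -0.36 in array set 1 (SD 0.60, n = 5) and 1.47 in array set 2 (SD 1.22, n = 6), the widest gap of the 35 genes (1.83; limma adjusted p = 0.997 between sets). ITGAL, the alpha chain of lymphocyte function antigen, had 0.14 and 0.85. FERMT3, which activates integrins in blood cells, had -0.24 and 0.72. ITGAM, the alpha chain typical of neutrophils and macrophages, lay below the filter (mean 3.66). On the vessel side genes moved in both directions. ICAM1, the main ligand of these integrins, had -0.08 and -0.61, and was lower in 10 of 11 cows (limma adjusted p = 0.158). VCAM1 had -0.37 and -0.88 (lower in 9 of 11 cows, limma adjusted p = 0.103), and SELE -0.20 and -0.01. SELP had 0.31 and 0.39, and was higher in 10 of 11 cows (limma adjusted p = 0.14). Of 6 NADPH oxidase genes, which make the oxidative burst, none passed, with CYBB, the catalytic subunit, at -0.14 and 0.57 and RAC1, a small GTPase of the complex, at -0.06 and -0.12. Of 5 kept chemoattractants and cytokines none passed, with the chemokines CCL3 at -0.25 and 0.44 and CCL4 at 0.47 and 0.27. CXCL8, the main neutrophil attractant, lay just below the filter (mean 5.04), with its highest level, 7.04, in the postpartum array of cow 346.

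Of the 14 S100 genes on the array, the 3 calgranulins included, all were kept, and 1 passed over 11 cows, against 3.43% of all kept probe sets. S100G, a calcium-binding protein known as calbindin, fell by 1.62 (SE 0.33, adjusted p = 0.0165, lower in 11 of 11 cows), in both sets (-1.01 and -2.13). S100A4, S100A10 and S100A11, which are expressed in many cell types, had changes of -0.37, -0.32 and -0.23 with adjusted p = 0.275, 0.195 and 0.281. S100A7 had mean changes of -2.04 (SD 3.47, n = 5) and -1.45 (SD 2.86, n = 6).

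**Figure D4:**
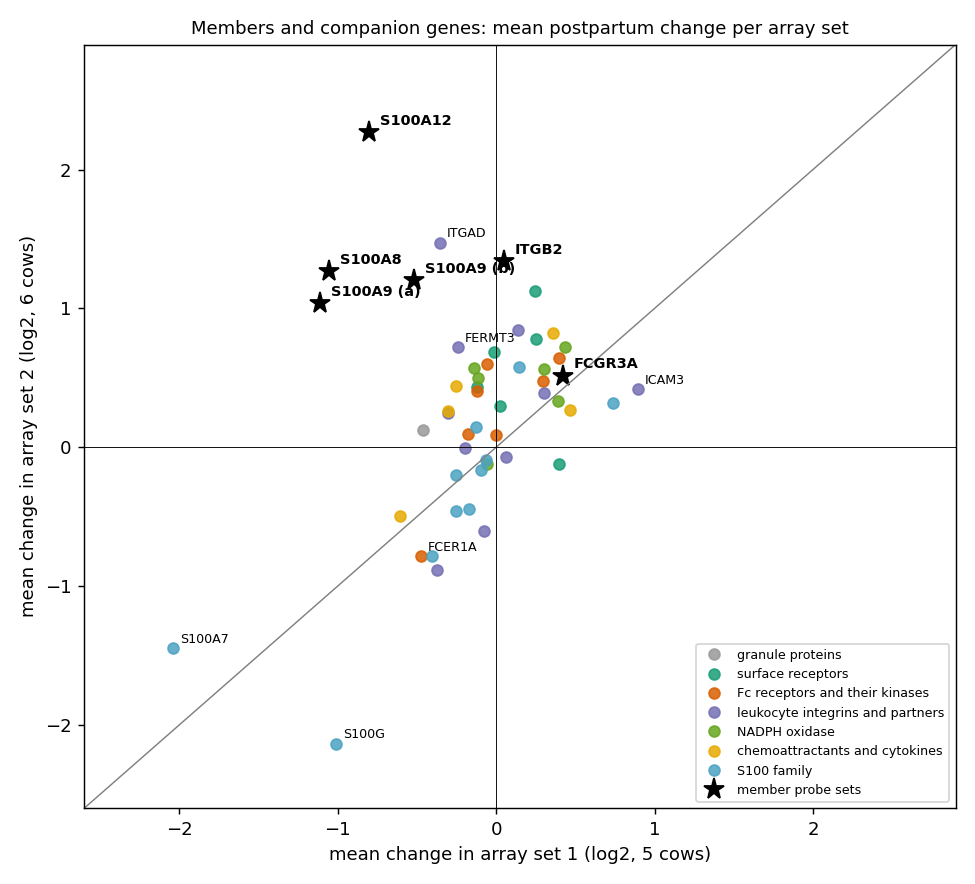
Mean change, postpartum minus prepartum on the log2 scale, in array set 1 (5 cows, horizontal) and array set 2 (6 cows, vertical). Stars are the member probe sets, and dots the kept genes of the 6 lists and the S100 family. The grey line marks equal change. The S100A8, S100A9 and S100A12 stars lie at the upper left (S100A12 at -0.80 and 2.27), FCGR3A lies near the line (0.42 and 0.52) and ITGAD lies at -0.36 and 1.47.

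The genes most alike in level were ranked by Pearson correlation over the 22 arrays among 6979 kept genes, as a description, since arrays of a cow share an animal and arrays of a set share a code. For the mean of S100A8, S100A9 and S100A12 they were MS4A1, the B cell antigen CD20 (r = 0.89), LYZ2, a lysozyme (0.89), SDS, serine dehydratase (0.88), CXCR1 (0.87), CORO1A, a leukocyte coronin (0.85), and CD48, a lymphocyte surface protein (0.85). The first held in each set, with r = 0.83 over 10 arrays of array set 1 and 0.92 over 12 of array set 2, and that of CORO1A was 0.54 and 0.96. MS4A1 lay between 7.83 and 9.07 in the postpartum arrays of cows 330, 346 and 382, above the other 19. For ITGB2 they were LAPTM5, a lysosomal protein of blood cells (0.95), LCP1, the leukocyte plastin (0.93), SLC11A1, a metal transporter of macrophages (0.92), ITGAD (0.92), ADCY7 (0.90) and PLEK, pleckstrin (0.89). For FCGR3A the values were lower: AIF1, a macrophage marker (0.74), SKAP2 (0.73), SLC17A9 (0.69), HSD17B11 (0.69), RNASET2 (0.69) and ABRACL (0.68). HSD17B11, a dehydrogenase of lipid droplets, rose by 0.60 over 11 cows (adjusted p = 0.0144), the 1 gene of these 18 that passed limma's test. Of all kept probe sets 3.43% passed it. The 18 genes were ranked over arrays of both stages, so nothing is read from this call. The calgranulins, ITGB2 and FCGR3A shared none of their 6 genes. Nothing is read from this, since lists of 6 among 6979 genes would seldom overlap.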

How the data were processed

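The authors deposited linear signal intensities, which the submitters' processing notes credit to MAS5 (settings: not given in the sources used here). Each array's 2% trimmed mean was 125.0. From 24128 probe sets, 112 controls were left out. Values were log2(signal + 7.78), 7.78 being the median of the arrays' 20th percentiles, and 14410 probe sets with a mean at or above the 40th percentile were kept. Folds on this scale understate dim genes. Limma 3.58.1 (R 4.3.3) with an intensity trend and cow as fixed block was fitted on all kept probe sets, with Benjamini-Hochberg adjustment and a threshold of 0.05, and tested on simulated data. A gene was represented by its brightest kept probe set. Titles pair arrays by cow, and the series design states paired sampling; after subtraction of group means, same-cow arrays correlated at 0.18 to 0.43 in 10 cows and -0.09 in cow 387. Single symbols came from the platform annotation, updated to RefSeq through Entrez identifiers. Arrays give no read depth, so their number limits the precision. The members and lists were chosen with earlier results of these data known. Named are all members, called list genes, those with the highest and lowest difference between sets in each list, the 6 genes most like a member, and genes set beside a result. CXCR1, FCGR1A, ITGAL, FERMT3, ITGAM, VCAM1, SELE, SELP, CXCL8, CATHL1, CATHL4, CATHL5, AHSP, SLC4A1, S100A4, S100A7, S100A10 and S100A11 were added after their values were seen. Alternatives varied block, normalization, pseudocount, filter, trend, weights and cows. No sequences of these genes were used here. Figures used matplotlib 3.10.9.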

Additional observations from a re-analysis of the deposited data

Results flagged for a closer look

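Among 36 groups of levels or changes (6 probe sets, 2 array sets), 1 array stood apart from its group: S100A8 before calving in cow 382 of array set 2 measured 9.68, with the nearest other array at 8.02. About 1 in 20 groups would show this by chance. That array also had high KRT10 (11.48), PF4 (8.97), CXCR1 (6.84) and MS4A1 (7.68).

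S100A12 was lower after calving in each of 5 cows of array set 1 and higher in each of 6 cows of array set 2. The gap of the means was 3.07 log2 units. No p-value is given for it, because this difference led to the choice of the gene. Limma's test between sets called 0 of 14410 probe sets after adjustment, and 516 at an unadjusted p under 0.05. Nothing is read from these counts for S100A12.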

How the results depend on the processing

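Leaving out cows 330, 346 and 382 was chosen after seeing the data. The 494 probe sets called over 11 cows became 1076 when arrays were weighted, 69 using array set 1 and 0 using array set 2 by itself (there, 1526 had an unadjusted p under 0.05), 1070 without cows 384 and 387, 6 when cows 330, 331, 341 and 382 were left out, 30 without cows 330, 346 and 382, and from 242 (without 382) to 969 (without 384) when single cows were left out; without 330, 341, 346, 347 or 360 the counts were 280, 263, 247, 314 and 265. Without the replicate block (cow) 338 passed, and no member's call changed. The difference between array sets gave 0 calls in all 22 alternatives. Means over 11 cows changed sign as follows. S100A8 was -1.06 using array set 1, -0.60 without cows 330, 346 and 382, and from -0.086 to 0.39 when single cows were left out, below 0 without cow 346. S100A9 (a) was -0.076 with a pseudocount of 1, -1.11 using array set 1, -0.30 when cows 330, 331, 341 and 382 were left out, -0.72 without cows 330, 346 and 382, and from -0.17 to 0.28 when single cows were left out, below 0 without 330 (-0.16), 346 (-0.12) or 382 (-0.17). S100A9 (b) was -0.52 using array set 1 and -0.22 without cows 330, 346 and 382. S100A12 was -0.80 using array set 1; it kept its sign at 0.48 without cow 346 and 0.02 without cows 330, 346 and 382. Over 11 cows ITGB2 and FCGR3A kept their sign in the alternatives run; the adjusted p of FCGR3A ranged from 0.0106 to 0.381, and the 60th percentile filter did not keep it. Means per array set moved by less than 1 SD, but those SDs are wide: without cows 330, 346 and 382 the array set 2 mean went from 1.27 to 0.15 for S100A8 and from 1.04 to -0.07 for S100A9 (a), and ITGB2 in array set 1 ranged from -0.12 to 0.25 when single cows were left out. The cause of these shifts was not tested. The number of arrays limits the precision.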
